A study of Mus musculus with 14 samples.

Results

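Cardiac fibroblasts were followed in heart RNA through 10 genes of the 42396 listed in both count tables. Of these, 4 are identity genes, which mark a cell as a fibroblast (Pdgfra, Tcf21, Ddr2 and Thy1), and 6 are secreted or activation-linked genes (Dpt, Cpxm1, Ptn, Sulf2, Islr and Pi16). The 10 were selected on the fold changes of both experiments, which were already known, so their levels and differences are a description and no p-value of a single one of them is given. The question was whether the secreted genes differed between groups by more than the identity genes did, as a comparison of fibroblast content with fibroblast activation. All 10 passed the filter on low values, which kept genes above 1 CPM (counts scaled to the library total) in at least 1 library of a comparison, and all 10 were above it in every library.

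All 10 genes were higher in Atf3-/-FS6KD than in Atf3+/+FS6KD hearts, and all 10 were lower in libraries labelled shAtf3 than in those labelled shCtrl. On the log2 scale, the median difference was 0.23 for the identity genes and 0.35 for the secreted genes in the knockout experiment. Without Atf3-/-FS6KD replicate 3 these were 0.15 and 0.29, and within replicates 1 and 2 they were 0.09 and 0.51. Taken as class means, the excess of the secreted genes was smaller within replicates 3 and 4 than within replicates 1 and 2. The AAV experiment gave medians of -0.34 and -0.63. The excess of the secreted genes over the identity genes in the knockout experiment lay mainly in Ptn and Cpxm1. In the AAV experiment all 6 secreted genes were lower relative to the identity mean under the shAtf3 label than under the shCtrl label. For Sulf2 this difference was smaller than its SE.

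All 14 libraries came from hearts of female FS6KD mice, meaning that Ndufs6, the gene of a complex I subunit, was knocked down predominantly in the heart. The knockout experiment used hearts of 12 weeks, with 4 libraries of Atf3+/+FS6KD and 4 of Atf3-/-FS6KD, and the Atf3-/- allele was made with CRISPR-Cas9 as a deletion over several exons in FS6KD fertilized eggs. Atf3 encodes a stress-induced transcription factor. For the AAV experiment, neonatal mice received MyoAAV2-shCtrl or MyoAAV2-shAtf3, with 3 libraries each, MyoAAV2 being a muscle-directed AAV vector that delivered either a control hairpin RNA or one against Atf3. The knockout removes Atf3 from every cell type, fibroblasts included, while the hairpin is aimed at muscle cells. No Ndufs6-competent heart was part of either experiment. The study calls the libraries of the knockout experiment biological replicates. For the AAV experiment the labels do not say whether each library came from its own mouse, so its errors and p-values cover only the spread between these samples, which may in part be technical.

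Fibroblasts fill the space between cardiomyocytes, arise largely from the epicardium and maintain the extracellular matrix. In stressed myocardium they can become activated, when they multiply and secrete matrix proteins, matrix-modifying enzymes and growth factors. Receptors and transcription factors that define the lineage are therefore commonly read beside secreted products, because the former follow the number of fibroblasts more closely and the latter also follow what each fibroblast makes. In a whole heart, a smaller number of fibroblasts and less RNA per fibroblast cannot be told apart.

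A library held 30085432 to 40534913 counts in the AAV experiment. The 10 genes had between 168 deposited counts (Ptn) and 15061.5 (Pi16) in a library. Libraries of the knockout experiment held 33914931 to 42409691 counts in replicates 1 and 2 of both genotypes and 112904389 to 134920825 in replicates 3 and 4. Atf3 itself went against the labels: it was 6.36 to 25.8 CPM in Atf3+/+FS6KD, 14.3 to 37.6 in Atf3-/-FS6KD, 10.1 to 14.1 in libraries with the shCtrl label and 12.1 to 21.2 in those with the shAtf3 label. Counts per gene do not separate the deleted exons from the rest, so they cannot check the knockout. The column names of the AAV table also name the opposite groups, so each AAV direction holds only if the labels do. Ndufs6 was 2.34 to 3.79 CPM in all libraries.

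Per kilobase of annotated exon, Dpt had the highest level of the 10 genes in all 4 groups, with 52.9 ± 5.96 CPM per kb (SD, n = 4) in Atf3+/+FS6KD hearts. Dpt encodes dermatopontin, a small matrix protein. Islr, Pi16 and Sulf2 came next in that order in every group, at 20.5 ± 4.56, 12.3 ± 2.86 and 11.1 ± 0.364 CPM per kb in Atf3+/+FS6KD, and there the ranges of Pi16 and Sulf2 overlapped. Pdgfra followed with 5.53 ± 0.363 and Ddr2 with 5.504 ± 0.763. Below them, Tcf21, Thy1, Cpxm1 and Ptn lay at 4.52 ± 0.864, 3.42 ± 0.514, 2.96 ± 0.349 and 2.30 ± 0.736, each overlapping its neighbour. Ptn was the lowest of the 10 in Atf3+/+FS6KD and the eighth in Atf3-/-FS6KD hearts, at 5.06 ± 0.529 CPM per kb, where the ranges of all genes from Pdgfra downwards overlapped from one neighbour to the next.

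Among the identity genes, Pdgfra encodes the receptor for platelet-derived growth factors that most cardiac fibroblasts carry. Its level was 54.5, 53.6, 60.8 and 52.9 CPM in Atf3+/+FS6KD and 62.8, 61.4, 67.9 and 61.5 CPM in Atf3-/-FS6KD. The groups did not overlap, although Atf3+/+FS6KD replicate 3 came within 1 CPM of the lowest knockout library, and the log2 fold change was 0.19 (SE 0.06). Pdgfra was 59.0, 70.0 and 55.2 CPM in libraries with the shCtrl label and 47.2, 48.6 and 45.9 CPM in those with the shAtf3 label. These groups did not overlap either, and the log2 fold change was -0.38 (SE 0.09).

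Tcf21 encodes a transcription factor needed for epicardial cells to become fibroblasts. It was 8.90, 9.97, 10.05 and 13.6 CPM in Atf3+/+FS6KD and 13.7, 13.3, 15.4 and 12.2 CPM in Atf3-/-FS6KD. The groups overlapped through Atf3+/+FS6KD replicate 4, and the log2 fold change was 0.36 (SE 0.14). It was 8.45, 9.57 and 12.0 CPM in libraries with the shCtrl label and 6.49, 7.76 and 6.69 CPM in those with the shAtf3 label, with no overlap and a log2 fold change of -0.52 (SE 0.14).

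Ddr2, a receptor tyrosine kinase for fibrillar collagen, differed least of the 10 genes in both experiments. It was 47.7, 60.5, 51.6 and 44.1 CPM in Atf3+/+FS6KD and 51.5, 53.4, 56.2 and 51.0 CPM in Atf3-/-FS6KD. The knockout libraries lay inside the range of the Atf3+/+FS6KD libraries, with a log2 fold change of 0.06 (SE 0.09), which single libraries moved. Leaving out Atf3+/+FS6KD replicate 4 gave -0.01, leaving out replicate 2 of that group gave 0.15, and leaving out its replicate 1 or the knockout replicate 3 gave 0.03. Ddr2 was 57.4, 65.6 and 48.2 CPM in libraries with the shCtrl label and 46.4, 56.6 and 51.0 CPM in those with the shAtf3 label, which overlapped, with a log2 fold change of -0.15 (SE 0.11). It was -0.04 without shCtrl replicate 2, -0.08 without shAtf3 replicate 1 and -0.26 without shCtrl replicate 3.

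Thy1 encodes a glycosylphosphatidylinositol-anchored surface protein of fibroblasts that T cells and neurons also carry. It was 10.4, 12.3, 8.79 and 9.49 CPM in Atf3+/+FS6KD and 11.1, 11.1, 15.3 and 11.7 CPM in Atf3-/-FS6KD. The groups overlapped through Atf3+/+FS6KD replicate 2, Atf3-/-FS6KD replicate 3 stood above the other 3 knockout libraries, and the log2 fold change was 0.27 (SE 0.14), or 0.15 without replicate 3. Thy1 was 13.1, 13.3 and 13.1 CPM in libraries with the shCtrl label and 10.8, 9.90 and 11.5 CPM in those with the shAtf3 label, with no overlap and a log2 fold change of -0.30 (SE 0.08). The summed level of 8 lymphocyte markers, of which 2 passed the filter in the knockout and 0 in the AAV experiment, was 1.36 to 6.07 CPM over all 14 libraries and 2.97 CPM in Atf3-/-FS6KD replicate 3. The part of lymphocytes in the Thy1 values was not tested.

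**Figure D1:**
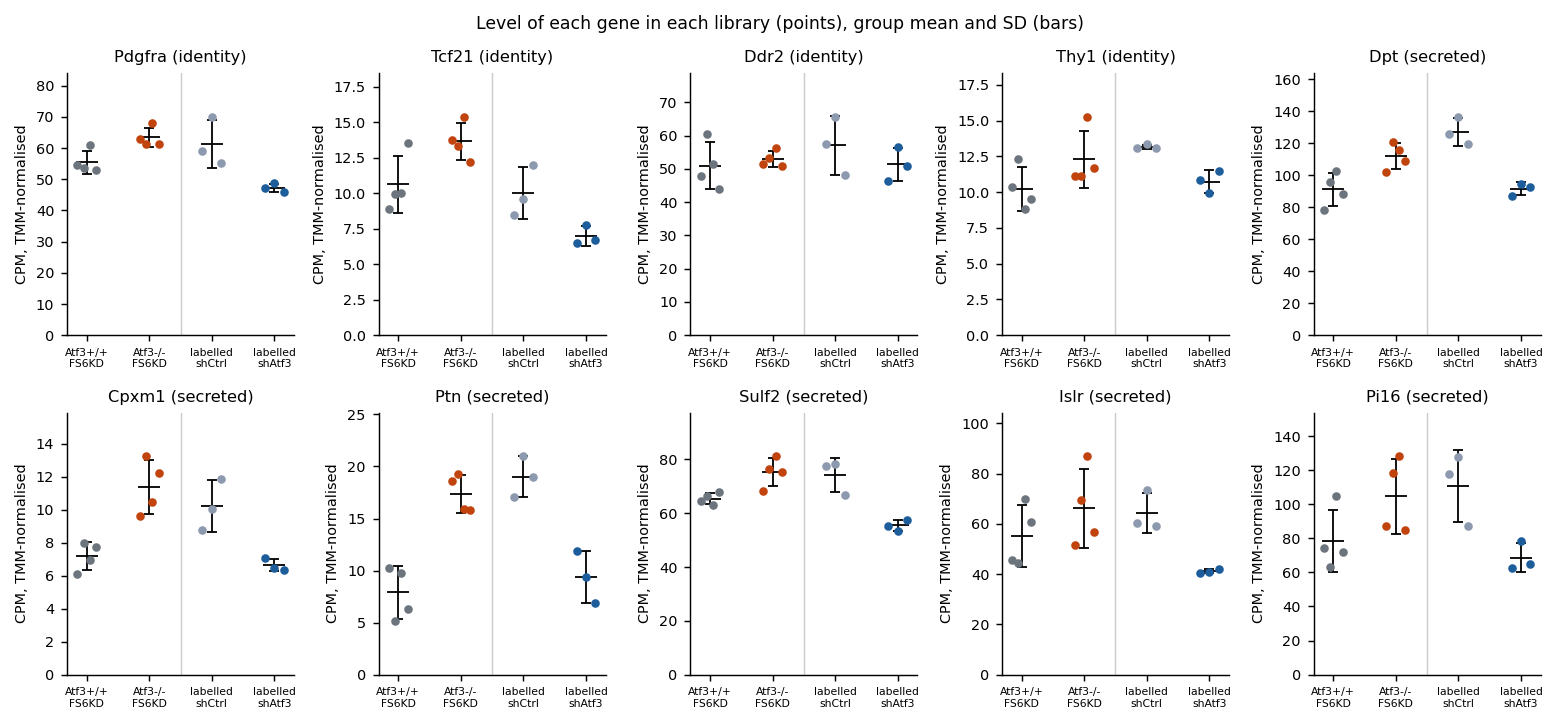
Level of each of the 10 genes (y axis, CPM after TMM normalisation within an experiment, from 0) in each of the 14 libraries, by group (x axis); points are libraries in replicate order, and bars are the group mean and SD. Ptn has the largest fold change of the 10 in both experiments, at 5.17 to 10.3 against 15.8 to 19.3 CPM in the knockout experiment, and the Ddr2 groups overlap in both.

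Of the secreted genes, Ptn showed the largest fold change in both experiments. It encodes pleiotrophin, a heparin-binding growth factor, and was 10.3, 5.17, 9.80 and 6.35 CPM in Atf3+/+FS6KD and 18.6, 19.3, 15.9 and 15.8 CPM in Atf3-/-FS6KD. No library of one group reached the other, and the log2 fold change was 1.13 (SE 0.21), a 2.19-fold difference. Its AAV values were 17.1, 21.0 and 19.0 CPM in libraries with the shCtrl label and 11.9, 9.36 and 6.90 CPM in those with the shAtf3 label. Again the groups did not overlap, with a log2 fold change of -1.02 (SE 0.17).

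Cpxm1 encodes a secreted member of the carboxypeptidase family. It was 6.12, 8.003, 6.93 and 7.74 CPM in Atf3+/+FS6KD and 9.59, 13.2, 10.4 and 12.2 CPM in Atf3-/-FS6KD. The groups did not overlap and the log2 fold change was 0.66 (SE 0.13). It was 8.74, 10.04 and 11.9 CPM in libraries with the shCtrl label and 7.05, 6.47 and 6.35 CPM in those with the shAtf3 label, also without overlap, with a log2 fold change of -0.62 (SE 0.12).

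Sulf2 encodes an extracellular sulfatase that trims heparan sulfate, the class of sugar chain to which pleiotrophin binds. It was 64.5, 66.5, 62.9 and 67.7 CPM in Atf3+/+FS6KD and 68.2, 76.5, 81.2 and 75.4 CPM in Atf3-/-FS6KD. Replicate 1 of the knockout lay just above the highest Atf3+/+FS6KD library, so that the groups did not overlap, and the log2 fold change was 0.20 (SE 0.06). Sulf2 was 77.4, 78.3 and 66.8 CPM in libraries with the shCtrl label and 55.4, 53.5 and 57.6 CPM in those with the shAtf3 label, without overlap and with a log2 fold change of -0.42 (SE 0.08).

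Dpt was 78.3, 95.6, 102 and 88.4 CPM in Atf3+/+FS6KD and 102, 121, 116 and 109 CPM in Atf3-/-FS6KD. The groups met at a single pair of libraries, Atf3+/+FS6KD replicate 3 and Atf3-/-FS6KD replicate 1, and the log2 fold change was 0.29 (SE 0.09). Dpt was 126, 136 and 119 CPM in libraries with the shCtrl label and 87.2, 94.7 and 92.6 CPM in those with the shAtf3 label. These were clearly apart, with a log2 fold change of -0.47 (SE 0.07).

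Islr and Pi16 were the most variable of the secreted genes between Atf3-/-FS6KD hearts. Islr, which encodes a secreted immunoglobulin-domain protein with leucine-rich repeats, was 45.5, 44.6, 69.8 and 60.7 CPM in Atf3+/+FS6KD and 51.5, 69.4, 86.9 and 56.6 CPM in Atf3-/-FS6KD. The groups overlapped broadly and the log2 fold change was 0.26 (SE 0.19). Leaving out the knockout replicate 3 gave 0.10, and leaving out replicate 2 or 3 of the Atf3+/+FS6KD group gave 0.17 or 0.39. Islr was 60.5, 73.4 and 59.1 CPM in libraries with the shCtrl label against 40.5, 41.0 and 41.9 CPM in those with the shAtf3 label, with no overlap and a log2 fold change of -0.64 (SE 0.09).

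Pi16 encodes a secreted peptidase inhibitor that marks a fibroblast population of the adventitia. It was 74.1, 63.2, 105 and 71.9 CPM in Atf3+/+FS6KD and 87.1, 118, 128 and 85.1 CPM in Atf3-/-FS6KD. Atf3+/+FS6KD replicate 3 lay among the knockout libraries, and the log2 fold change was 0.41 (SE 0.18). Pi16 was 118, 128 and 87.3 CPM in libraries with the shCtrl label and 62.8, 78.7 and 64.8 CPM in those with the shAtf3 label, without overlap and with a log2 fold change of -0.69 (SE 0.14).

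Single libraries were high in many of the 10 genes together. Atf3-/-FS6KD replicate 3 was the highest of its group in 7 genes and the library labelled shCtrl replicate 2 the highest of its group in 8. In Atf3+/+FS6KD, no library was highest in more than 4 genes.

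**Figure D2:**
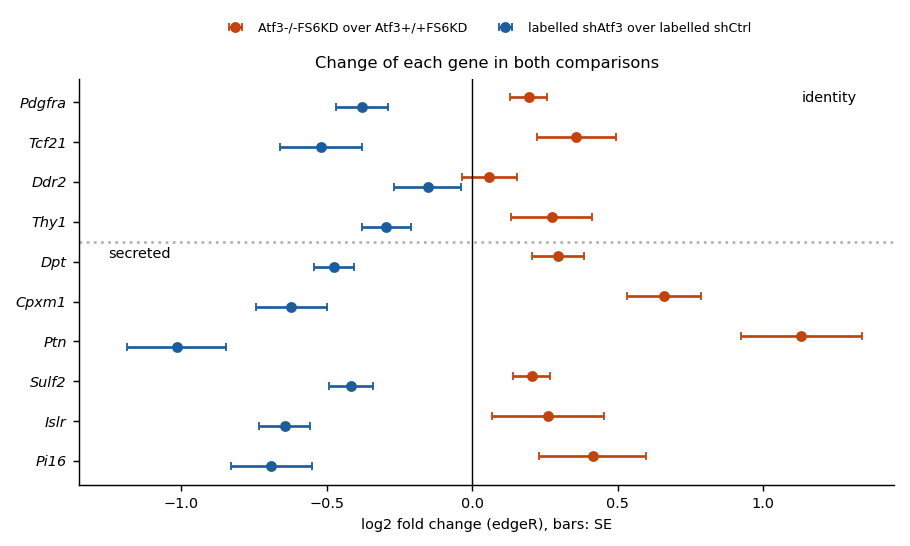
Log2 fold change from edgeR (x axis) of each of the 10 genes (y axis) in the knockout experiment and the AAV experiment, with identity genes above the dotted line and secreted genes below it; bars are the SE. All 10 points of the knockout experiment lie above 0 and all 10 of the AAV experiment below 0, with Ptn farthest from 0 at 1.13 and -1.02.

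In the knockout comparison, edgeR's quasi-likelihood test called 0 of 15592 genes at an adjusted p below 0.05, that is 0% of all genes and none of the 10. At an unadjusted p below 0.05 it called 1575 genes (10.1%), of which 844 were higher (5.41%), and 7 of the 10, all higher. DESeq2 called 208 genes (1.33%; 0.686% higher), among them Ptn and Cpxm1, and limma-trend called 0. Groups did not overlap with the knockout higher for 4 of the 10 genes (Pdgfra, Cpxm1, Ptn and Sulf2), against 3.08% of all genes.

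At an unadjusted p below 0.05, edgeR called 1933 of 15225 genes (12.7%) in the AAV comparison, of which 1164 were lower (7.65%), and 9 of the 10, all lower. At an adjusted p below 0.05 it called 82 genes (0.539%), of which 69 were lower in libraries with the shAtf3 label (0.453%), and these included Dpt, Ptn and Islr. DESeq2 called 308 genes (2.02%; 1.55% lower) and 7 of the 10, all but Tcf21, Ddr2 and Thy1. By limma-trend 85 genes (0.558%; 0.473% lower) and 3 of the 10 were called. Groups did not overlap with the libraries labelled shAtf3 lower for 9 of the 10 genes, all but Ddr2, against 9.94% of all genes. The number of the 10 called by edgeR depended on single libraries: it was 6 without the library labelled shCtrl replicate 3, 1 without shCtrl replicate 1, and 0 without shCtrl replicate 2 or without any 1 of the libraries labelled shAtf3. Because both comparisons were used to choose the genes, nothing is read from these counts.

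The difference between the experiments was taken as the knockout log2 fold change minus the AAV log2 fold change, as labelled, in 1 edgeR fit of all 14 libraries. It was called for 26 of 15708 genes (0.166%), of which 24 were positive (0.153%), and for 4 of the 10 genes. DESeq2 called 669 genes (4.26%; 2.42% positive) and 8 of the 10, and limma-trend 48 genes (0.306%; 0.274% positive) and 5 of the 10. The 4 of edgeR were Ptn with 2.14 (SE 0.31), Cpxm1 with 1.28 (SE 0.19), Dpt with 0.76 (SE 0.12) and Sulf2 with 0.62 (SE 0.10). The remaining differences ran from 0.21 (SE 0.16) for Ddr2 to 1.10 (SE 0.27) for Pi16, with medians of 0.57 over the identity genes and 0.999 over the secreted genes. For Ddr2 the difference was 0.10 without the library labelled shCtrl replicate 2 and 0.31 without shCtrl replicate 3. The number of the 10 called was 2 without Atf3-/-FS6KD replicate 2, 1 without the library labelled shCtrl replicate 1 or without that labelled shAtf3 replicate 1 or 3, and 0 without shCtrl replicate 2 or shAtf3 replicate 2. Both experiments supplied the choice of genes here too, so nothing is read from these calls.

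These differences rest on the AAV direction as labelled, which the column names and Atf3 itself put in doubt. With the AAV labels exchanged, edgeR called 0 of 15708 genes (651 at an unadjusted p below 0.05) and 0 of the 10. The difference was then 0.11 (SE 0.31) for Ptn, 0.04 (SE 0.19) for Cpxm1, -0.18 (SE 0.12) for Dpt and -0.21 (SE 0.10) for Sulf2, with medians of -0.13 over the identity genes and -0.19 over the secreted genes. The 2 experiments also differ in the way Atf3 was targeted, in the cells reached and in sequencing depth. No age at collection is given for the AAV hearts, so age may differ too. These and an exchange of labels cannot be told apart.

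To compare the classes within a library, the mean log2 CPM of each class was taken. The mean of the 4 identity genes was 4.47, 4.65, 4.52 and 4.55 in Atf3+/+FS6KD and 4.73, 4.72, 4.94 and 4.69 in Atf3-/-FS6KD. The groups did not overlap, with group means of 4.55 ± 0.08 and 4.77 ± 0.12 (SD, n = 4 each) and a difference of 0.22 (SE 0.07). The mean of the 6 secreted genes was 5.002, 4.91, 5.26 and 5.05 in Atf3+/+FS6KD and 5.40, 5.70, 5.67 and 5.47 in Atf3-/-FS6KD, which did not overlap either and differed by 0.50 (SE 0.10).

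The secreted mean minus the identity mean of the same library was 0.53, 0.26, 0.74 and 0.49 in Atf3+/+FS6KD and 0.67, 0.97, 0.73 and 0.78 in Atf3-/-FS6KD. The groups overlapped through Atf3+/+FS6KD replicate 3, and the difference was 0.28 (SE 0.12). It was 0.42 within replicates 1 and 2 and 0.13 within the deeper replicates 3 and 4. It also rested on a few genes, being 0.14 without Ptn, 0.07 without Ptn and Cpxm1, and 0.06 where class medians replaced class means.

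For the AAV libraries, the identity mean was 4.63, 4.79 and 4.67 in libraries with the shCtrl label and 4.31, 4.43 and 4.37 in those with the shAtf3 label, a difference of -0.33 (SE 0.06) without overlap. The secreted mean was 5.55, 5.72 and 5.52 against 4.99, 4.99 and 4.88, a difference of -0.64 (SE 0.07) without overlap. The secreted minus identity value was 0.91, 0.92 and 0.85 in libraries with the shCtrl label and 0.68, 0.56 and 0.51 in those with the shAtf3 label. It did not overlap and differed by -0.31 (SE 0.06). Without Ptn the difference was -0.23, and without Ptn and Cpxm1 it was -0.22.

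**Figure D3:**
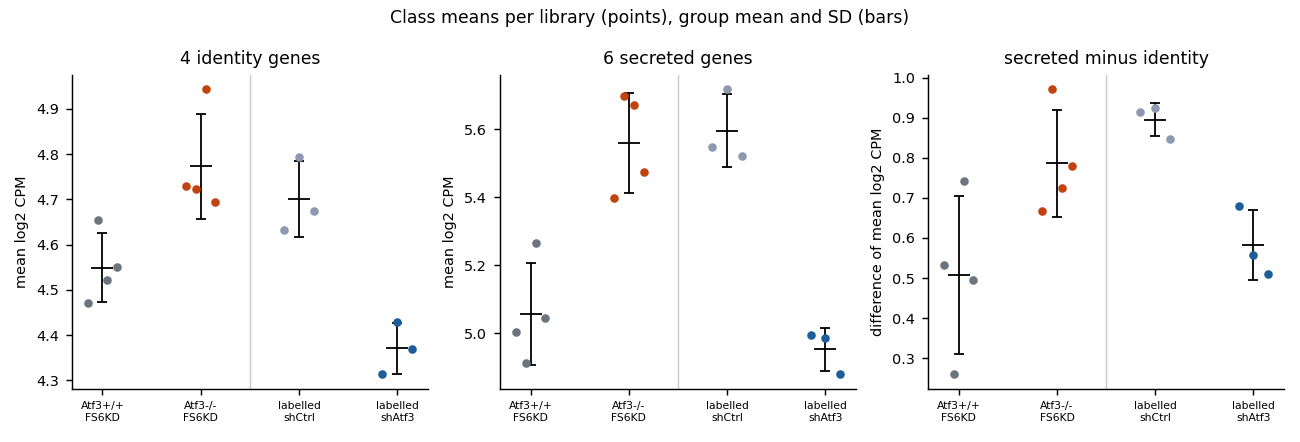
Mean log2 CPM of the 4 identity genes and of the 6 secreted genes, and secreted minus identity (y axes, log2 scale), in each of the 14 libraries by group (x axis); points are libraries, bars are the group mean and SD. Both class means separate the groups of each experiment, while the secreted minus identity value overlaps in the knockout experiment (0.26 to 0.74 against 0.67 to 0.97) and not in the AAV experiment (0.85 to 0.92 against 0.51 to 0.68).

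Each secreted gene was also read relative to the identity mean of the same library, and in the knockout experiment a pair of genes stood apart from the rest. Ptn was higher by 0.96 (SE 0.30) and Cpxm1 by 0.43 (SE 0.15), both without overlap of the groups. Pi16, Dpt, Islr and Sulf2 differed by 0.19 (SE 0.21), 0.07 (SE 0.10), 0.03 (SE 0.21) and -0.02 (SE 0.06), all overlapping. An identity gene was set against the mean of the other 3 identity genes, so its values are not on the scale of the secreted genes. On that reference Ddr2 differed by -0.21 (SE 0.11), with overlap.

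In the AAV experiment all 6 secreted genes were lower relative to the identity mean. The difference was -0.72 (SE 0.25) for Ptn, -0.31 (SE 0.06) for Islr and -0.14 (SE 0.03) for Dpt, each without overlap. For Pi16 it was -0.35 (SE 0.17), for Cpxm1 -0.28 (SE 0.15) and for Sulf2 -0.08 (SE 0.09), each with overlap. Against the other 3 identity genes, Ddr2 differed by 0.25 (SE 0.15), with overlap, and Pdgfra by -0.04 (SE 0.10) in the knockout and -0.06 (SE 0.09) in the AAV experiment. Tcf21 differed by 0.20 (SE 0.17) in the knockout and by -0.23 (SE 0.21) in the AAV experiment. Thy1 differed by 0.05 (SE 0.14) and 0.04 (SE 0.13), and the groups overlapped for Pdgfra, Tcf21 and Thy1 in both.

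**Figure D4:**
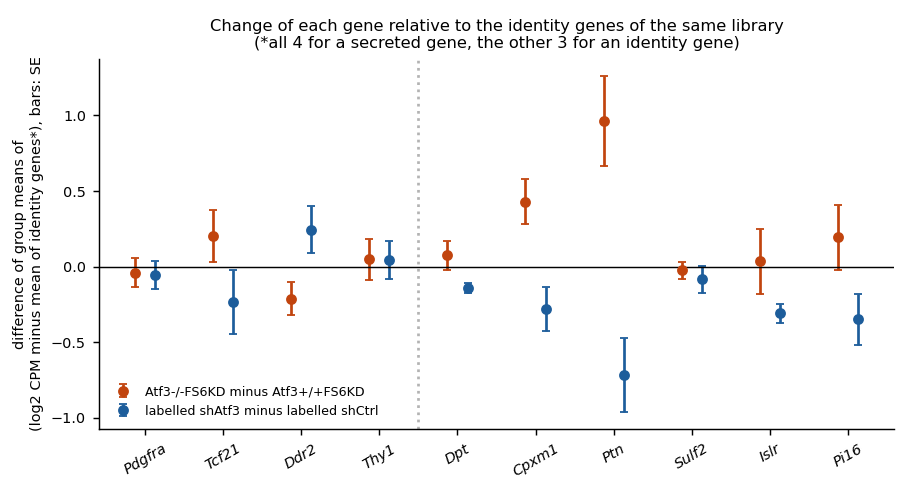
Difference between groups in log2 CPM relative to the identity genes of the same library (y axis) for each of the 10 genes (x axis), in the knockout and the AAV experiment; the reference is the mean of all 4 identity genes for a secreted gene and of the other 3 for an identity gene; bars are the SE, and the dotted line parts identity from secreted genes. Ptn is farthest from 0 in both experiments (0.96 and -0.72), and Sulf2 lies near 0 in both (-0.02 and -0.08).

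A list of 20 other fibroblast genes was compared with the 10. This list and those below were chosen with earlier results of these data known, so their counts and p-values are a description. In the knockout experiment 17 of 19 tested were higher, with a median log2 fold change of 0.27 against 0.00 over all genes tested, and edgeR and limma-trend called 0 and DESeq2 1 (4 at an unadjusted p below 0.05 in edgeR, all higher, against 5.41% of all genes). Fbln1, which encodes the matrix protein fibulin-1, was 0.51 (SE 0.18) and Dkk3, a secreted Dickkopf protein, 0.41 (SE 0.26). All 19 were lower in libraries with the shAtf3 label, with a median of -0.41, and edgeR called 4, limma-trend 5 and DESeq2 14, against 0.453%, 0.473% and 1.55% of all genes called lower. The 4 called by edgeR fell, Dkk3 by 1.06 (SE 0.16, adjusted p = 0.0299), Mmp2, a matrix metalloproteinase, by 0.86 (SE 0.10, adjusted p = 0.0250), Serpinf1, which encodes pigment epithelium-derived factor, by 0.80 (SE 0.10, adjusted p = 0.0293), and Cd248, a stromal surface protein, by 0.58 (SE 0.10, adjusted p = 0.0409). The median of this list was nearer to that of the identity genes than to that of the secreted genes in both experiments.

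A list of 20 genes of activated fibroblasts lay farther out. In the knockout experiment 18 of 20 were higher, with a median log2 fold change of 0.58, and edgeR and limma-trend called 0 and DESeq2 3 (7 at an unadjusted p below 0.05 in edgeR, all higher, against 5.41% of all genes). Their summed level overlapped, at 648 to 1144 CPM in Atf3-/-FS6KD and 722 to 900 CPM in Atf3+/+FS6KD. One of the 20, Cthrc1, was above the filter only in libraries of the group where it was higher, in both experiments, and it is named here for that reason. Without it 17 of 19 were higher in the knockout experiment, with a median of 0.58 and 6 at an unadjusted p below 0.05. Timp1, an inhibitor of metalloproteinases, was 1.28 (SE 0.39) and Lox, which crosslinks collagen, 1.11 (SE 0.28). The 2 lower genes, named after their values were seen, were Acta2, the smooth muscle actin of myofibroblasts and mural cells, at -1.07 (SE 0.49) and Fap, a surface protease, at -0.13 (SE 0.16). All 20 were lower in libraries with the shAtf3 label, with a median of -1.15 (-1.14 without Cthrc1, which was not among those called by edgeR), and edgeR and limma-trend called 7 and DESeq2 10, against the same 0.453%, 0.473% and 1.55% of all genes. Of the 7 called by edgeR, Comp fell by 1.72 (SE 0.15, adjusted p = 0.0100), Fmod by 1.43 (SE 0.22, adjusted p = 0.0348), Ltbp2 by 1.36 (SE 0.18, adjusted p = 0.0293) and Mfap4 by 1.15 (SE 0.11, adjusted p = 0.0137), all matrix proteins. Comp and Fmod are also markers of valve and tendon-like fibroblasts, and Dkk3 is also a marker of atria.

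The calls in both lists rested on single libraries. With 1 library left out in turn, the number called in the AAV experiment ran from 0 to 15 for the other fibroblast genes and from 0 to 15 for the activated genes. In both lists it was 15 without the library labelled shCtrl replicate 3, and it was 0 for both without the library labelled shAtf3 replicate 1 or 2. Without shCtrl replicate 2 it was 0 for the other fibroblast genes and 2 for the activated genes, and without shAtf3 replicate 3 it was 1 for each. The number lower was 18 or 19 of the other fibroblast genes and 19 or 20 of the activated genes.

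Ligands, receptors and close relatives of the 10 genes had medians nearer to 0 than the fibroblast lists. Of 16 listed, 15 were tested in the knockout experiment, where 9 were higher and 6 lower with a median of 0.00. Ptprz1 was above the filter there only in libraries of the group where it was higher, and it is named for that reason. Without it 8 were higher and 6 lower of 14, with a median of 0.00. Of the 15, edgeR, DESeq2 and limma-trend called 0 (3 in edgeR at an unadjusted p below 0.05, all higher, against 5.41% of all genes higher). Pdgfrb, the related receptor of mural cells and fibroblasts, was 0.24 (SE 0.08) and Sulf1, the paralog of Sulf2, 0.15 (SE 0.15). Of the AAV values, 4 were higher and 10 lower of 14 tested, with a median of -0.16. Called were 0 by edgeR and limma-trend and 1 by DESeq2 (5 in edgeR at an unadjusted p below 0.05, all lower, against 7.65% of all genes lower). Sulf1 was -0.49 (SE 0.13) and Sdc3, a heparan sulfate proteoglycan that binds pleiotrophin, -0.22 (SE 0.06). Mdk, which encodes midkine, the only other member of the pleiotrophin family, was 0.65 (SE 0.22) in the knockout and -0.70 (SE 0.15) in the AAV experiment, and it is named here after its values were seen.

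**Figure D5:**
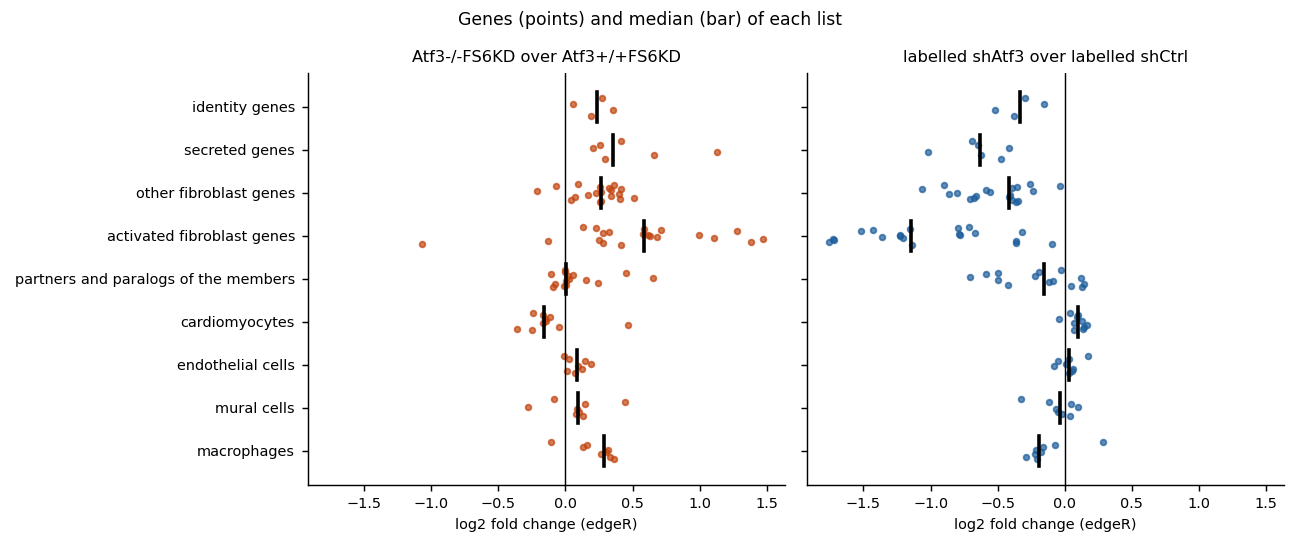
Log2 fold change from edgeR (x axis, same scale in both panels) of the genes of 9 lists (y axis) in the knockout experiment (left) and the AAV experiment (right); points are genes and black bars the median of a list. The activated fibroblast genes have the medians farthest from 0, at 0.58 and -1.15, and the endothelial genes lie close to 0, at 0.09 and 0.03.

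Marker lists of the other main cardiac cell types were read beside the fibroblast genes. Macrophage markers were higher for 7 of 8 in the knockout experiment (median 0.29, summed level 217 to 330.03 against 200.1 to 265 CPM) and lower for 7 of 8 in the AAV experiment (median -0.19, summed level 294 to 299 in libraries with the shAtf3 label against 326 to 339.6 CPM). Cardiomyocyte markers went the other way, lower for 9 of 10 in the knockout (median -0.16) and higher for 9 of 10 in the AAV experiment (median 0.10), with overlapping summed levels of 69775 to 89475 against 81741 to 97235 CPM and 80754 to 86848 against 73812 to 84306 CPM. Endothelial markers had medians of 0.09 and 0.03, and mural markers medians of 0.09 and -0.04. The summed macrophage levels did not overlap in the AAV experiment. edgeR called 0 genes of these 4 lists in both experiments, among 34 genes. At an unadjusted p below 0.05, the knockout had 2 macrophage genes (both higher), 2 cardiomyocyte genes (1 higher and 1 lower), 1 endothelial and 1 mural gene (both higher). The AAV experiment had 5 of 8 macrophage genes, all lower like the fibroblast genes, and 1 cardiomyocyte gene, higher. Over all genes these shares were 10.1% and 12.7%, with 7.65% lower in the AAV experiment. limma-trend called 0 as well, and DESeq2 called 2 cardiomyocyte and 1 mural gene in the knockout and 0 in the AAV experiment. The part of these cell types in the differences of the 10 genes was not tested.

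Marker lists of neighbouring tissues that a heart sample can include were read too. Of 6 atrial markers 3 were tested, with the defining Sln, Myl7 and Bmp10 below the filter. Their summed level was 300.2 to 719.6 against 577 to 667 CPM in the knockout experiment, with a median log2 fold change of 0.12. In the AAV experiment the median was -1.06, all 3 were lower and Dkk3 was called. The atrial sum was 808, 805 and 281 CPM under the shCtrl label and 296, 349 and 265 CPM under the shAtf3 label, so that shCtrl replicates 1 and 2 stood apart from the other 4 libraries. Almost all of this sum was Nppa, named after its values were seen, at 608 ± 299 CPM (SD, n = 3) under the shCtrl label and 291 ± 42.0 CPM under the shAtf3 label. Nppa encodes atrial natriuretic peptide, which ventricles of stressed hearts also express, so the sum does not separate atrial tissue from such expression. Library shCtrl replicate 3 also had the lowest summed fibroblast levels of its group, 3776 against 4451 and 4861 CPM for the other fibroblast genes and 1048 against 1708 and 1406 CPM for the activated genes. Of the 10 genes it was the lowest of its group in 6, and 9, all but Ddr2, were higher in it than in every library labelled shAtf3. Without it the median log2 fold changes were -0.33 over the identity genes and -0.61 over the secreted genes. In the remaining lists some markers were above the filter only in libraries of 1 group, so summed levels over the whole list are given and no medians. Valve and tendon-like fibroblast markers summed to 122 to 186 against 111 to 184 CPM in the knockout experiment, with overlap, and to 110.5 to 134 against 159 to 261 CPM in the AAV experiment, without overlap. Epicardial markers were 9.32 to 15.3 CPM summed over all libraries, Schwann cell and neuron markers 10.1 to 20.9 CPM and adipocyte markers 334 to 566 CPM. Of the 6 adipocyte markers, Adipoq, Plin1, Cidec and Lep did not pass the filter in either experiment. The part of atrial and valve tissue in the differences was not tested.

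Genes with a pattern close to that of the classes were sought over all 14 libraries, among 10106 genes above 3 mean log2 CPM, by the root mean square distance of log2 CPM centred within each experiment. Nearest to the mean of the identity genes were Nid1, Pid1, Nlgn2, Ptbp1 and Myo1d, at distances of 0.07 to 0.09, where the median gene lay at 0.20. Pdgfra lay at 0.08 and Tcf21 farthest of the 4 at 0.18, where a gene without variation would lie at 0.16. Nearest to the mean of the secreted genes were Igfbp4, Antxr1, Col6a1, Aebp1 and Rcn3, at 0.10 to 0.12, where the median gene lay at 0.33. Dpt was the closest of the 6 at 0.13 and Ptn the farthest at 0.38, farther than the median gene. A gene without variation would lie at 0.30 from the secreted mean. Identity and secreted genes were measured against the mean of their class, which contains them. Col6a1 encodes a chain of collagen VI and Igfbp4 a secreted binding protein of insulin-like growth factors.

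The 10 genes lie on 7 chromosomes of the mouse genome (GRCm38). Ddr2 (chr1:169972307-170110836, minus strand) and Dpt (chr1:164796663-164824274, plus strand) lie on the chromosome of Atf3, at 21.2 and 26.4 Mb from it. Without both, the secreted minus identity value differed by 0.27 in the knockout and by -0.29 in the AAV experiment. Ptn (chr6:36714924-36810179) and Cpxm1 (chr2:130390775-130397629), both on the minus strand, share no exonic bases with another annotated gene. Islr shares 181 exonic bases with Islr2 on the same strand and Pdgfra 30 with a neighbour. Pdgfra, Ddr2, Sulf2 and Pi16 share exonic bases with genes on the other strand, and counts in those stretches are uncertain.

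Because the 10 genes differed in one direction within each experiment, their promoters were searched for words bound by AP-1 (TGAGTCA or TGACTCA), by the ATF/CREB family to which Atf3 belongs (TGACGTCA) and by TEAD factors (GGAATG), on both strands, none of the words containing another. The windows ran from 250 bases before to 50 bases after the start site in the RefSeq table of GRCm38.p6, which holds 9 of the 10 genes. Of all 32851 windows, 5.20% held the AP-1 word, 1.79% the ATF/CREB word and 14.7% the TEAD word. Of the 9 genes, 0, 0 and 1 held them. The 1 was Sulf2, whose stretch around the word is shown on its own strand with the word, here read as its reverse complement, in capitals (chr2:166155641-166155668, minus strand, just downstream of the start site).
Sulf2: cctttctttccCATTCCcggcccatgtc
The absence of a word says only that these letters are not in these windows.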

How the data were processed

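Stranded mRNA libraries had been made from RNA of whole hearts. The authors deposited 1 table of estimated counts per gene for each experiment, without normalization or pooling, and the submitters' processing notes name featureCounts 2.0.0 and GRCm38.p6. The aligner is not given in the sources used here. Per library, 19.3% to 24.4% of values had a fraction, so they were treated as estimated counts and rounded. Libraries were grouped by their labels, and 0 columns were left out. The 10 genes, lists and tests were chosen with earlier results of these data known. Genes above 1 CPM in at least 1 library were tested with edgeR 4.0.16 in R 4.3.3 (TMM, two-sided quasi-likelihood test, threshold 0.05 after Benjamini-Hochberg adjustment), with no covariate and a fit on all genes. limma 3.58.1 (limma-trend) and DESeq2 1.42.0 were alternatives. Mean log2 CPM used a prior count of 2. No pair of replicates agreed within sampling noise (chi-square per gene 6.83 to 92.3). On simulated data with 200 changed genes per comparison, 98% of genes changed by 1 on the log2 scale were recovered in the knockout comparison (15592 genes) and 100% in the AAV comparison (15225 genes). Whether these shares hold for the deposited libraries was not tested. In the knockout comparison the log2 fold changes of Ptn, Lox and Timp1 were 1.13, 1.11 and 1.28, and edgeR called none of them. Named genes were the 10, then from each list the called genes, at most 4 by size, or with none called the 2 with the largest difference above 3 mean log2 CPM. For lists other than those of fibroblasts and partners, only counts, medians and summed levels are given. No protein sequences were used here.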

Additional observations from a re-analysis of the deposited data

Results flagged for a closer look

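A single library stood apart from the other 3 of its group by Dixon's criterion in 3 cases of 28 tested, and chance gives about 1 in 20. Atf3 was 25.8 CPM in Atf3+/+FS6KD replicate 1 and 6.36 to 6.91 CPM in the other 3. Thy1 was 15.3 CPM in Atf3-/-FS6KD replicate 3 and 11.1 to 11.7 CPM in the other 3. The mean log2 CPM of the 4 identity genes, which includes Thy1, was 4.94 in the same library and 4.69 to 4.73 in the other 3.

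The knockout and AAV log2 fold changes, the latter as labelled, differed by the interaction term of edgeR for 4 of the 10 genes, by 2.14 for Ptn, 1.28 for Cpxm1, 0.76 for Dpt and 0.62 for Sulf2. The genes were chosen on these same fold changes, higher in one experiment and lower in the other, so these differences restate the choice and are given as a description only. They also rest on the AAV direction as labelled, and with the AAV labels exchanged they were 0.11, 0.04, -0.18 and -0.21, with 0 of the 10 called.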

How the results depend on the processing

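Of 540 recomputed values of single genes, 11 reversed, of which 3 were in the knockout comparison: Ddr2 was -0.0072 without Atf3+/+FS6KD replicate 4 and -0.0415 within replicates 1 and 2, and Thy1 was -0.0239 within replicates 1 and 2. There the class medians were 0.0902 for the identity and 0.51 for the secreted genes. The cause was not tested. The number of genes called in the knockout comparison was 208 by DESeq2 (2 of the 10 genes), 2 without the low-value filter, 31 with the spread taken from all 14 libraries (1 of the 10, Ptn), 8 within replicates 3 and 4, and 0 to 15 with 1 library left out. In the AAV comparison it was 308 by DESeq2 (7 of the 10), 304 without the filter (7 of the 10), 1 with the spread from all 14 libraries (0 of the 10), and 1 to 285 with 1 library left out (0 to 6 of the 10). For the difference between the experiments it was 669 by DESeq2 (8 of the 10), 48 by limma-trend, 205 with library size alone (identity median 0.67), 61 without the filter, 43 with copies merged, 0 with the AAV labels exchanged (0 of the 10), and 0 to 168 with 1 library left out (0 to 6 of the 10). With the AAV labels exchanged the medians were -0.13 (identity) and -0.19 (secreted), and 8 genes turned negative: Pdgfra -0.18, Tcf21 -0.16, Ddr2 -0.0903, Thy1 -0.0161, Dpt -0.18, Sulf2 -0.21, Islr -0.38 and Pi16 -0.27. The secreted minus identity value differed by 0.0625 in the knockout and -0.24 in the AAV experiment with class medians, by 0.14 and -0.23 without Ptn and by 0.0699 and -0.22 without Ptn and Cpxm1. With 1 library left out it ran from 0.196 to 0.357 and from -0.362 to -0.28. The alternatives with exchanged labels, without Ptn or Cpxm1, within 2 replicates of that value, and with each library left out of the list counts were chosen after seeing the data. With 3 or 4 libraries a group, the SEs of the 10 genes' log2 fold changes within an experiment were 0.06 to 0.21.

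Whether replicate numbers pair the samples is not settled by the correlations. The correlation of same-numbered libraries' deviations from their group means was 0.01 to 0.14 in the knockout experiment (2 of 4 pairs above 0.1). It was at most 0.15 in the AAV experiment (1 of 3). Libraries of different number gave -0.24 to 0.19 and -0.18 to 0.09. A library correlated best with its own number in 2 of 4 and 2 of 3 cases. In the knockout experiment, replicates 3 and 4 of both genotypes were also sequenced more deeply than replicates 1 and 2. With the replicate block, edgeR called 0 genes in the knockout and 20 in the AAV comparison, and 0 of the 10 genes in both.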
